A study of Arabidopsis thaliana with 27 samples.

Results

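The comparison described here set 3 arrays of opr3 stamens taken 22 h after treatment with OPDA (12-oxophytodienoic acid) against 3 arrays of untreated opr3 stamens. The members are these 6 arrays of 27 in all, chosen by their titles, and all 22810 probe sets of the Affymetrix ATH1 array were considered. Every stamen sample of the 2 groups came from Arabidopsis thaliana plants carrying opr3, grown on soil in continuous light at 22 °C. For the treated group, buds at flower stage 12 received 0.03% OPDA and the stamens were collected 22 h later. Other arrays used for comparison were opr3 stamens 22 h after 0.03% methyl jasmonate, which the titles call JA (3 arrays), and opr3 stamens at 0.5, 2 and 8 h after OPDA (8 arrays). One array of untreated stamens of the wild-type background Ws carries no test. The labels list no mock-treated buds at 22 h and do not give the stage of the untreated buds, so the effects of OPDA, of the applied solution and of a further 22 h on the plant cannot be told apart. The labels do not say that the 3 arrays of a group came from separate plants. The p-values measure a spread between arrays within groups, pooled over all groups fitted, and that spread may be technical.

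OPDA is made in the plastid from linolenic acid and is the precursor of jasmonic acid. The OPR3 reductase converts OPDA on the main path to jasmonic acid, which peroxisomal beta-oxidation then completes, and plants without OPR3 make too little jasmonate for their anthers to open, their filaments to elongate and their pollen to become fertile. In a maturing anther, the tapetum nurses the microspores and then dies, while pollen grains fill with transcripts for tube growth. OPDA keeps the long carboxylic side chain that beta-oxidation shortens, and methyl jasmonate carries the short side chain as its methyl ester.

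Stamens 22 h after OPDA had more signal from genes of mature pollen and less from both tested genes of the tapetum than untreated opr3 stamens. The pectate lyase AT59 averaged 6.48 times its untreated signal and the actin-binding protein PLIM2a 4.77 times, whereas the sugar transporter SWEET8 and the tetraspanin TET15 were among the genes that fell. Of 14028 probe sets tested, 1628 were called, which is 11.6%. The 799 rises made up 5.7% of the probe sets tested and the 829 falls 5.91%. Changes here are differences of log2(signal + 16) between group means, which understate the change of dim genes, and a call is an adjusted p under 0.05 from limma with Benjamini-Hochberg adjustment over all probe sets tested. Rises were larger than falls, with 428 rises and 212 falls of at least 2-fold, and the median change was 1.07 among the rises and -0.71 among the falls. The median over all probe sets tested was -0.085. With each array centred on its median instead, 907 rises and 607 falls were called.

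**Figure D1:**
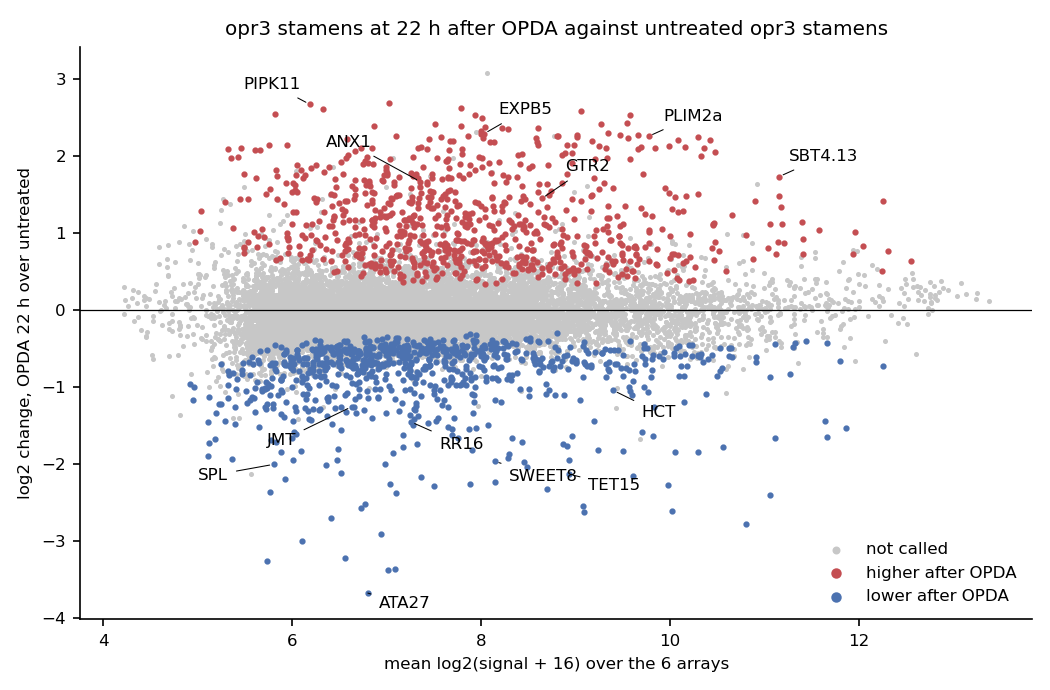
Log2 change in OPDA 22 h over untreated opr3 stamens (vertical axis, log2 of signal + 16) against the mean level over the 6 arrays (horizontal axis, same scale), 1 point per probe set tested. The 799 called rises are red and the 829 called falls are blue, and 13 genes described in the text are named, among them PIPK11 at 2.67 and ATA27 at -3.68.

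The number of calls depended on single arrays. Untreated replicate 3 lay closer to the treated arrays than the other 2 untreated arrays did in many of the genes below, and treated replicate 2 had the highest signal of most pollen genes. Without treated replicate 2, 135 rises and 155 falls were called, without untreated replicate 1 the counts were 106 and 107, and without untreated replicate 2 they were 186 and 191. Leaving out untreated replicate 3 gave 989 rises and 1175 falls. The scanner records put treated replicate 2 and untreated replicates 1 and 2 on one scan day, and replicate 3 of both groups on another. Within the first of these days the called rises had a median change of 1.58 and the called falls of -1.04, and within the second these were 0.6 and -0.4. These probe sets were chosen by calls on the same arrays, so their signs within a day are no separate check. Calls held in each of the 6 fits that left out 1 array for 183 probe sets, 86 of them higher and 97 lower. The median array signal was 48.65 to 52.25 in the treated group and 53 to 55.9 in the untreated group.

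Only part of the calls can be named. Of the 1628 called probe sets, 891 were paired with 1 gene and 123 of these had a gene symbol. OPR3 itself, the stamen regulators MYB21 and MYB24, and the jasmonate marker VSP2 had no probe set paired with them alone and were not analysed here, so the opr3 lesion was not checked in these arrays. Genes given by a locus number have no symbol in the annotation used, and no role is given for them.

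Of all the gene lists, that of pollen genes held the most called rises. The list of pollen and pollen tube genes had 22 members on the array, of which 19 passed the filter on low signals, which asked for 50 or more on 2 or more of the arrays fitted. In OPDA 22 h over untreated, 11 of the 19 were called higher and none lower, against 5.7% called higher over all probe sets tested. The list was chosen with earlier results of these data known, so the gap between these shares is no independent test. The median change of the 19 was 0.77, and 18 changes were positive. The summed signal of all 22 members was 12501.2, 18600.3 and 12034.1 in the treated arrays, against 8494.4, 8461.1 and 9907.6 in the untreated arrays, so the groups did not overlap. Whether there was more RNA per pollen grain or a larger share of pollen in the stamens cannot be told apart in whole stamens. The median change was 1.32 within the scan day that held treated replicate 2 and untreated replicates 1 and 2, and 0.4 within the other. One member was called without treated replicate 2, 1 without untreated replicate 2 and none without untreated replicate 1, while the median stayed between 0.59 and 0.92 over the 6 fits that left out 1 array. Fitted on the 6 arrays alone, 4 members were called.

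**Figure D2:**
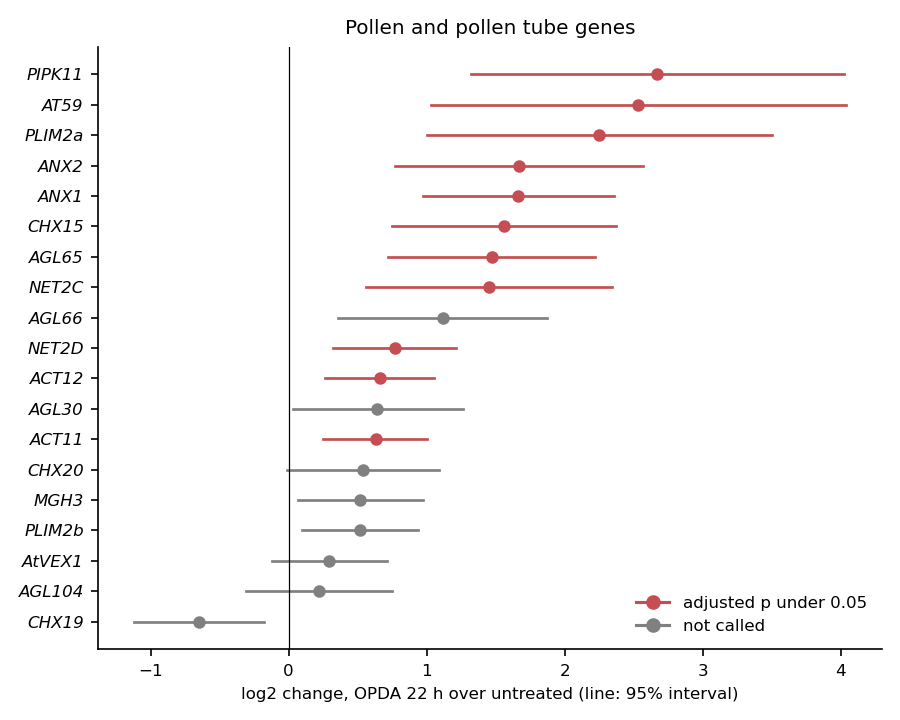
Log2 change in OPDA 22 h over untreated opr3 stamens for the 19 tested members of the pollen and pollen tube list, with 95% intervals from the limma fit. The 11 called members are red, and CHX19, at -0.65, is the only member with a change below 0.

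The kinase PIPK11, which makes the membrane lipid phosphatidylinositol bisphosphate at the tip of pollen tubes, had signals of 75.6, 361 and 163 after OPDA, against 4.8, 1.9 and 48.5 in untreated stamens. All treated values lay above all untreated ones, and the 2 groups were separated in this way, in either direction, for 28% of the probe sets tested (11% higher and 17% lower). The log2 change was 2.67 (95% interval 1.32 to 4.02, limma adjusted p = 0.014). The pectate lyase AT59, an enzyme that cuts the pectin of cell walls, had 298, 956 and 657 after OPDA, against 90.3, 39 and 165 in untreated stamens, a log2 change of 2.53 (SE 0.73, limma adjusted p = 0.029). Again the groups did not overlap, with treated replicate 2 the highest and untreated replicate 2 the lowest. PLIM2a, a LIM protein that bundles the actin filaments of pollen tubes, had 1152.8, 3476.3 and 1702.3 after OPDA, against 323, 223 and 782 in untreated stamens. Its log2 change was 2.25 (SE 0.6, limma adjusted p = 0.021). The receptor kinases ANX1 and ANX2 keep the pollen tube from bursting before it reaches the ovule. ANX1 had 232, 395 and 228 after OPDA, against 50, 63.3 and 134 in untreated stamens (log2 change 1.66, SE 0.33, limma adjusted p = 0.005). ANX2, chosen after its values were seen, had 102, 345 and 245 after OPDA, against 36.6, 36.8 and 108 in untreated stamens, so that its lowest treated value lay below its highest untreated one. The calls of PIPK11 and PLIM2a were lost without treated replicate 2, without untreated replicate 1 or without untreated replicate 2, that of AT59 also without treated replicate 3, and that of ANX1 only without untreated replicate 1.

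The other called members of the list had smaller changes. The reproductive actins ACT11 and ACT12 rose by 0.63 and 0.66 on the log2 scale, and the actin-binding proteins NET2C and NET2D by 1.45 and 0.77. The cation/proton exchanger CHX15 rose by 1.56 and the MADS factor AGL65, one of the MIKC* factors of late pollen, by 1.47. Its relatives AGL66, AGL104 and AGL30 had changes of 1.12, 0.22 and 0.64 that were not called, with limma adjusted p of 0.051, 0.63 and 0.17. The sperm cell histone MGH3 was at 688, 834 and 532 after OPDA, against 474, 442 and 479 in untreated stamens. Those groups did not overlap, yet the change of 0.52 missed the threshold (limma adjusted p = 0.12). CHX19 was the exception in sign, at 1384.9, 965 and 998 after OPDA, against 2005.1, 1606.5 and 1635.3 in untreated stamens (log2 change -0.65, limma adjusted p = 0.064).

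**Figure D3:**
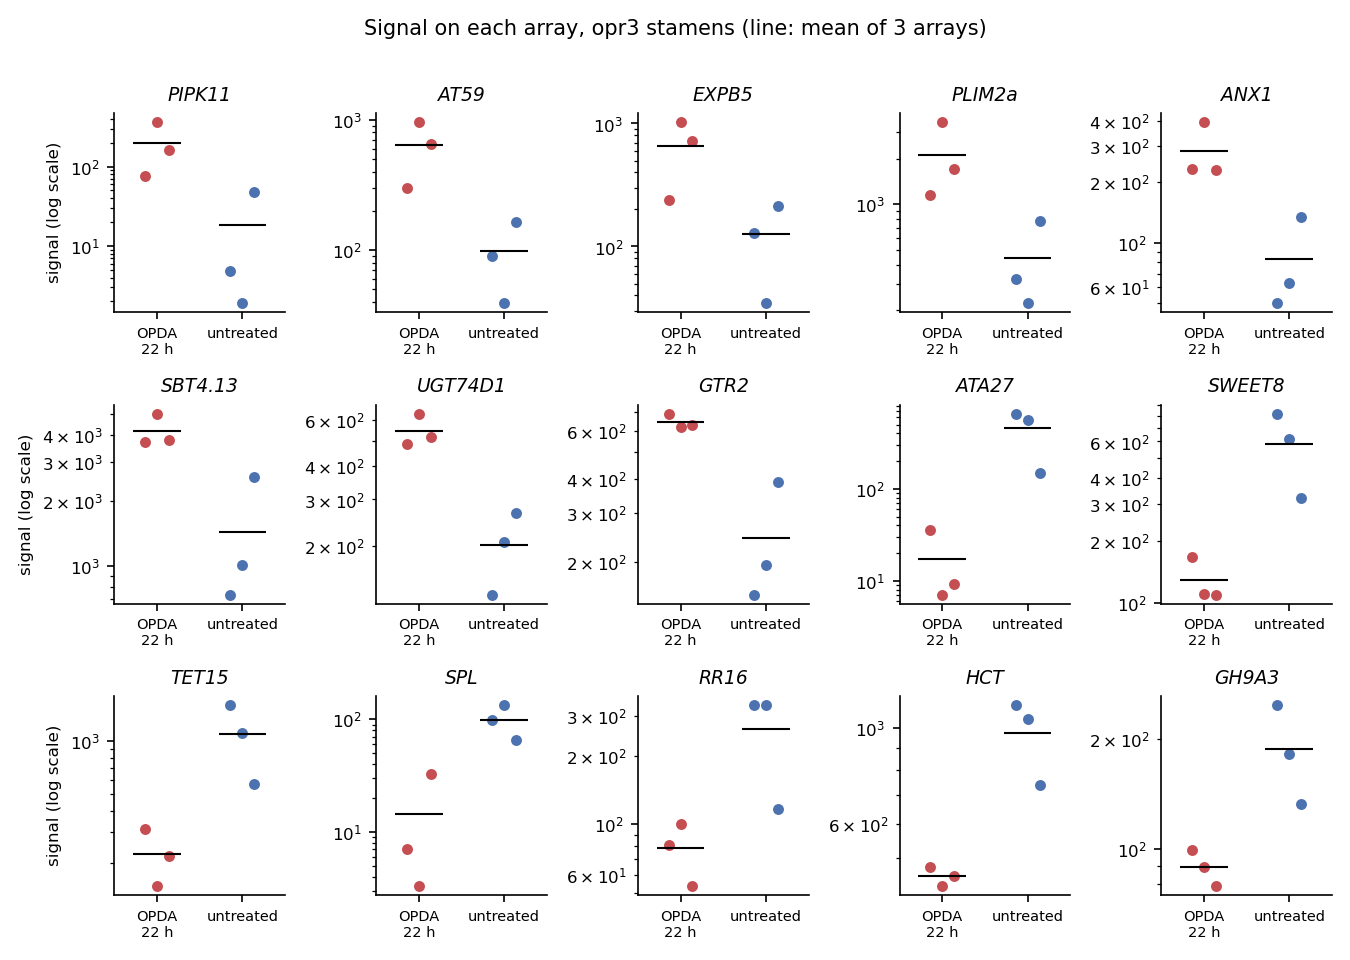
Signal (log axis) on each of the 3 OPDA 22 h arrays, left, and the 3 untreated opr3 arrays, right, for 15 genes described in the text, with a line at each group mean. PIPK11, AT59 and PLIM2a are higher on all 3 treated arrays, and ATA27, SWEET8 and SPL are lower on all 3.

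Most of the largest rises were in genes without a symbol and had the same order of arrays as AT59. The 15 largest rises among bright probe sets whose groups did not overlap ran between 2.26 and 2.67 on the log2 scale, and 4 of them had a symbol: PIPK11, AT59, EXPB5 and APPB1. APPB1 had 566, 1655.8 and 950 after OPDA, against 178, 119 and 309 in untreated stamens (log2 change 2.26, limma adjusted p = 0.018). All 15 had their highest signal on treated replicate 2. The loci AT2G46300 and AT4G39130 were the only 2 of the 15 to keep their call without each array in turn. AT4G39130 had 394, 655 and 459 after OPDA, against 54.1, 37.7 and 224 in untreated stamens (log2 change 2.39, limma adjusted p = 0.0027). AT2G46300 had 57.9, 193 and 149 after OPDA, against 1.8, 1.5 and 25.4 in untreated stamens, a change of 2.54 (limma adjusted p = 0.0037). Each of the 2 loci had its 3 treated values above every untreated value, as the choice of the 15 required.

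The cyclin-dependent kinase gene cdc2cAt was the only called member of 9 tested cell cycle and histone genes, with 97, 406 and 207 after OPDA, against 45, 5.8 and 84.2 in untreated stamens (log2 change 2.11, limma adjusted p = 0.031). Of 10 tested beta-glucosidases, which release sugars from glucosides, BGLU36 was called higher and ATA27 and BGLU41 lower. The share called over all probe sets tested was 5.7% higher and 5.91% lower. BGLU36 had 85.5, 437 and 177 after OPDA, against 35.2, 4.8 and 66.7 in untreated stamens (log2 change 2.22, limma adjusted p = 0.03). BGLU41 had 138, 113 and 80.7 after OPDA, against 333, 302 and 175 in untreated stamens (log2 change -1.16), and its call was lost without treated replicate 2, untreated replicate 1 or untreated replicate 2. Of 11 tested autophagy genes, 2 members of the ATG8 family, whose proteins tag autophagic membranes, were called higher: ATG8E by 0.56 and APG8H by 0.42. Both lost the call without treated replicates 2 or 3, without untreated replicates 1 or 2 and with the 6 arrays fitted alone. The calls of cdc2cAt and BGLU36 were lost without treated replicate 2, treated replicate 3, untreated replicate 1 or untreated replicate 2. None of 9 tested peroxidase and redox genes and none of 5 tested flavonoid genes was called by limma, with 1 of each list at an unadjusted p under 0.05.

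Genes that loosen and rebuild cell walls moved in both directions. Over all probe sets tested, 5.7% were called higher and 5.91% lower. Of 16 tested expansins and xyloglucan enzymes, 4 were called higher and 1 lower, with a median change of 0.12. The beta-expansin EXPB5, one of the proteins that loosen walls, had 237, 1021.6 and 720 after OPDA, against 128, 34.6 and 214 in untreated stamens (log2 change 2.29, SE 0.66, limma adjusted p = 0.03). The alpha-expansins EXPA24 and EXPA8 rose by 1.85 and 0.85 and the expansin-like EXLA2 by 1.12, while EXLA1 fell by 0.52. None of the list was called without treated replicate 2, without untreated replicate 1 or without untreated replicate 2. Of 10 tested GH9 endoglucanases, which cut beta-1,4-glucans, GH9A4 and GH9B17 were called higher and GH9A3 lower. GH9B17 had 143, 187 and 158 after OPDA, against 45.1, 50.9 and 65.5 in untreated stamens, a change of 1.36 (SE 0.19, limma adjusted p = 0.0011) that was called in all 6 fits without 1 array. GH9A3 had 99, 89.4 and 79.1 after OPDA, against 248, 182 and 133 in untreated stamens (log2 change -0.92, limma adjusted p = 0.0045). Both endoglucanases separated the groups fully, in opposite directions. In the TBL family, whose known members acetylate wall polysaccharides, 5 of 13 tested members were called higher and 1 lower. TBL20 had the largest of these rises, at 1.32. None of the TBL members was called higher without treated replicate 2 or without untreated replicate 1, and 1 was without untreated replicate 2.

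The polygalacturonase ADPG1, which dissolves the pectin between cells when anthers and fruits open, had 401, 457 and 344 after OPDA, against 98.7, 156 and 224 in untreated stamens (log2 change 1.3, SE 0.31, limma adjusted p = 0.012). It was the only called member of the 3 anther-opening genes tested, against 11.6% called over all probe sets tested. The call of ADPG1 was lost without treated replicate 2 or untreated replicate 1. The bHLH gene AT1G59640 encodes the petal size regulator BPEp among other splice forms, which its probe set was not checked to separate. It had 1123.2, 1322.5 and 943 after OPDA, against 532, 698 and 668 in untreated stamens (log2 change 0.82, SE 0.15, limma adjusted p = 0.0035). Its call held without each array in turn.

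Some genes of the cytoskeleton and of small secreted peptides were called higher. Of 9 tested tubulins and actins, 4 were called higher, against 5.7% over all probe sets tested, and none lower. Their median change was 0.51. TUA1, an alpha-tubulin abundant in pollen, had 657, 1427.2 and 724 after OPDA, against 284, 319 and 484 in untreated stamens (log2 change 1.28, limma adjusted p = 0.018). No member was called without treated replicate 2, without untreated replicate 1, without untreated replicate 2 or when the 6 arrays were fitted alone. Of 8 tested RALF-like peptides, secreted signals that act on receptor kinases at the cell wall, RALFL26 and RALFL25 were called higher, by 2.14 and 1.47. RALFL26 had 463, 1236 and 884 after OPDA, against 146, 94.5 and 337 in untreated stamens. The remaining 6 peptides of the list had changes between -0.05 and 0.36 and none was called. The defensin-like peptide LCR72 had 1231.1, 2734.8 and 1447.5 after OPDA, against 302, 278 and 654 in untreated stamens (log2 change 2.11, SE 0.49, limma adjusted p = 0.011). Its call was lost without treated replicate 2, untreated replicate 1 or untreated replicate 2, while RALFL26 lost its call without any of these 3 and also without treated replicate 3.

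Among the rises of at least 2-fold that held without each array in turn were enzymes of small-molecule and protein metabolism. UGT74D1, a sugar transferase that acts on auxins, had 487, 633 and 518 after OPDA, against 131, 207 and 267 in untreated stamens (log2 change 1.41, 95% interval 0.88 to 1.94, limma adjusted p = 0.003). ALDH2C4, which oxidises coniferaldehyde and sinapaldehyde to the matching acids, had 643, 771 and 536 after OPDA, against 182, 221 and 360 in untreated stamens (log2 change 1.34, SE 0.25, limma adjusted p = 0.0034). The cysteine protease CP1 had 1586.3, 2129.7 and 1247 after OPDA, against 535, 616 and 799 in untreated stamens (log2 change 1.31, limma adjusted p = 0.0025). The groups did not overlap for any of these 3 genes, as was the case, in either direction, for 28% of the probe sets tested. The subtilase SBT4.13, a serine protease of the secretory path, had 3729, 5022.8 and 3800.1 after OPDA, against 737, 1004.7 and 2554.7 in untreated stamens (log2 change 1.73, limma adjusted p = 0.023). Untreated replicate 3 was here much nearer the treated arrays than the other untreated arrays, and the call was lost without treated replicate 2, untreated replicate 1 or untreated replicate 2.

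Glucosinolates, the sulfur-rich defence compounds of the cabbage family, had 2 genes among the rises. GTR2, a plasma membrane importer of glucosinolates, had 691, 616 and 627 after OPDA, against 152, 194 and 389 in untreated stamens (log2 change 1.44, SE 0.31, limma adjusted p = 0.0068). UGT74B1, which adds the glucose of the glucosinolate core, had 211, 204 and 156 after OPDA, against 55.5, 96.8 and 92 in untreated stamens (log2 change 1.1, SE 0.21, limma adjusted p = 0.0035). The treated values of both genes lay above every untreated value. The remaining 4 tested members of the list were not called, and 5.7% of all probe sets tested were called higher. GTR2 lost its call without untreated replicate 1. GTR1, the close relative of GTR2 that also carries jasmonoyl-isoleucine and gibberellin, was at 57.2, 49.4 and 47.4 after OPDA, against 41.5, 51.9 and 55.1 in untreated stamens, with a change of 0.04 (95% interval -0.28 to 0.36).

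Lists of jasmonate and defence genes held 3 called members, JMT, JAL23 and LCR72, with 4 tested genes in each list, against 11.6% called over all probe sets tested. JAL23 and LCR72 are counted here as list members, and their response to jasmonate was not tested. The list members PDF1.2, PDF1.2b and THI2.2 were below the filter on signal and were not tested. Of 4 tested genes of jasmonate synthesis and its regulation, only JMT was called. JMT, which turns jasmonic acid into its methyl ester, had 85.3, 28.2 and 42.4 after OPDA, against 163, 208 and 74.2 in untreated stamens (log2 change -1.26, SE 0.35, limma adjusted p = 0.026). The treated replicate 1 value lay above the untreated replicate 3 value, and the call was lost without untreated replicate 1, untreated replicate 2, treated replicate 2 or treated replicate 3. OPCL1, the ligase that activates OPDA-derived chains for beta-oxidation, had 58.3, 88.9 and 56.7 after OPDA, against 35, 53.9 and 46.2 in untreated stamens (log2 change 0.45, limma adjusted p = 0.12). The regulator ORA47 had 18.7, 46.3 and 31.4 after OPDA, against 16.4, 6 and 5.6 in untreated stamens (log2 change 0.91, limma adjusted p = 0.068). Both had treated values above every untreated value without passing the test. None of the other 3 tested members of the marker and defence list besides LCR72 was called. THI2.1, a thionin, was at 968, 419 and 1094.8 after OPDA, against 358, 442 and 363 in untreated stamens (log2 change 0.96, limma adjusted p = 0.084). Treated replicate 2 lay within the untreated values there. The jacalin-type lectin JAL23 rose, with 321, 264 and 430 after OPDA, against 39.5, 98.4 and 176 in untreated stamens (log2 change 1.7, SE 0.33, limma adjusted p = 0.0036), and its call held without each array in turn.

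Genes of classes known from seedlings and leaves to respond to reactive oxylipins such as OPDA, namely those of glutathione conjugation, sulfur supply and heat shock proteins, held 1 called gene, against 11.6% called over all probe sets tested. Among 7 tested glutathione transferases and transporters, GSTU25 alone was called. It had 59, 61 and 105 after OPDA, against 2.4, 21.1 and 29.1 in untreated stamens (log2 change 1.5, SE 0.31, limma adjusted p = 0.0056), and it lost the call without untreated replicate 1. None of 4 genes of sulfur and glutathione supply was called, with changes between -0.34 and 0.17 and 0 at an unadjusted p under 0.05 in limma. Neither of 2 heat shock genes was called, with 1 at an unadjusted p under 0.05.

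Both tested tapetum genes fell, and one of them, ATA27, had the largest named fall. ATA27, an anther beta-glucosidase of the tapetum, had 35.6, 7.1 and 9.3 after OPDA, against 655, 557 and 150 in untreated stamens. The groups were far apart, although untreated replicate 3 stood well below the other 2 untreated arrays. The log2 change was -3.68 (95% interval -5.12 to -2.25, limma adjusted p = 0.0035), with -4.75 within one scan day and -2.71 within the other. SWEET8, a sugar exporter of the tapetum that microspores need to build their wall, had 167, 111 and 110 after OPDA, against 816, 615 and 321 in untreated stamens (log2 change -1.97, 95% interval -2.63 to -1.31, limma adjusted p = 0.0019). Both tested members of the 4-gene tapetum list were called lower, against 5.91% called lower over all probe sets tested. The list was chosen with earlier results of these data known, so the gap between these shares is no independent test. ATA27 and SWEET8 stayed called without each array in turn, when the 6 arrays were fitted alone and in a fit that blocked on scan day. The list's summed signal was 268, 167 and 157 in treated arrays, against 1573.4, 1240.7 and 540 in untreated arrays. The other 2 members, the tapetum regulator AMS and KOM, a rhomboid protease, were below the filter on signal. AMS had 32.4, 28.9 and 17.7 after OPDA, against 52.7, 36.8 and 32.2 in untreated stamens.

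SPL, the nuclear regulator that starts sporogenesis in young anthers, had 7, 3.3 and 32.8 after OPDA, against 98.8, 134 and 66 in untreated stamens (log2 change -2.01, SE 0.34, limma adjusted p = 0.0025). The tetraspanins TET15 and TET11, small membrane proteins, fell together. TET15 had 314, 148 and 219 after OPDA, against 1613.6, 1121.7 and 568 in untreated stamens (log2 change -2.14, SE 0.37, limma adjusted p = 0.0025). TET11 had 158, 82.7 and 110 after OPDA, against 516, 320 and 207 in untreated stamens (log2 change -1.4, limma adjusted p = 0.0024). In SPL, TET15 and TET11 the highest treated value lay below the lowest untreated one, and the calls held without each array in turn. TET15 and TET11 were taken from called genes whose groups did not overlap, so for them this separation is no separate support. The locus AT5G17340 had 23, 11.5 and 11.3 after OPDA, against 605, 354 and 87.4 in untreated stamens (log2 change -3.22, limma adjusted p = 0.0029). The bright locus AT1G66850 had 1376.4, 782 and 709 after OPDA, against 5922.5, 6267.7 and 3181.8 in untreated stamens (log2 change -2.4, limma adjusted p = 0.0038).

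Of 5 tested phenylpropanoid and lignin genes, ALDH2C4 was called higher and HCT and SDT lower, against 11.6% called over all probe sets tested. Their median change was 0.46. HCT, an acyltransferase of lignin synthesis, had 477, 431 and 454 after OPDA, against 1128.2, 1050.2 and 738 in untreated stamens (log2 change -1.05, SE 0.17, limma adjusted p = 0.0023). SDT, which joins sinapic acid to spermidine, had 22.8, 12.2 and 7.6 after OPDA, against 78.2, 85 and 49.5 in untreated stamens (log2 change -1.53, limma adjusted p = 0.0051). The treated HCT values differed by less than the distance to the nearest untreated array, and both falls held without each array in turn. RR16, a response regulator that cytokinin induces and that damps cytokinin signalling, had 81.4, 100 and 53.5 after OPDA, against 334, 334 and 117 in untreated stamens (log2 change -1.46, SE 0.29, limma adjusted p = 0.0049). It lost its call without untreated replicate 1 and with the 6 arrays fitted alone. The gibberellin repressor SPY fell by 0.5 on the log2 scale and EIN3, a transcription factor of ethylene signalling, rose by 0.52. The call of SPY was kept in 1 of the 6 fits without 1 array, without treated replicate 3, and was lost with the 6 arrays alone and with arrays centred on the median. EIN3 lost its call without treated replicates 2 or 3, without untreated replicates 1 or 2 and with the 6 arrays alone. None of 5 tested auxin genes and none of 4 tested WRKY factors was called by limma, with 2 and 1 at an unadjusted p under 0.05.

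Markers of tissue other than stamens were few. Of the carpel and ovule markers, SPT and INO were tested and neither was called by limma, with 0 at an unadjusted p under 0.05. Their list's summed signal was 242, 167 and 163 after OPDA, against 196, 226 and 197 in untreated stamens. Of the planned sepal, petal and leaf markers only RBE, PTL and UFO could be named on the array, and they lay below 25 on all 6 arrays. None of the planned leaf markers was among them, so that list gave no check on leaf tissue. Nuclear photosynthesis genes summed to 7213.8, 7123.6 and 8156 after OPDA, against 6110.7, 7161.2 and 8773 in untreated stamens. Of 13 tested, 1 was called lower, LHCB4.2 by a change of -0.64, against 5.91% over all probe sets tested. No member of this list was called without treated replicates 1 or 2, without untreated replicates 1 or 2 or with the 6 arrays alone. Of the 2 tested stamen and anther markers, SPL was called lower in every fit that tested it, as given above, and AGL18 was at 543, 604 and 420 after OPDA, against 435, 489 and 399 in untreated stamens, without a call.

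Signals at 0.5, 2 and 8 h after OPDA were set against those at 22 h in the same fit, with the 3 earlier group means averaged. In this comparison 2839 probe sets were called, or 20.2%, with 1206 higher at 22 h (8.6%) and 1633 lower (11.6%), or 1398 and 1171 with arrays centred on the median. Without treated replicate 2 of the 22 h group, 532 were higher and 465 lower. This comparison uses the same 22 h arrays as the one above, and the earlier OPDA arrays were not tested against untreated stamens here.

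PLIM2a averaged 266, 358 and 205 at 0.5, 2 and 8 h, with single arrays between 57.7 and 536, and the lowest 22 h array was at 1152.8. Its change at 22 h over the earlier OPDA arrays was 2.94 (SE 0.5, limma adjusted p = 0.00045). ANX1 averaged 66.4, 105 and 76.2 at the earlier times, and its change was 1.62 (SE 0.28, limma adjusted p = 0.00048). ATA27 averaged 577, 503 and 518 at the earlier times, with single arrays between 235 and 1125.5, all above the 22 h arrays (change -3.96, SE 0.58, limma adjusted p = 0.00017). SWEET8 averaged 561, 594 and 483 at these times (change -1.94, limma adjusted p = 0.00011), and RR16 252, 253 and 231 (change -1.48, limma adjusted p = 0.00035). In these 5 genes no earlier OPDA array reached the range of the 22 h arrays. JAL23 instead had intermediate levels before 22 h, averaging 82.8, 186 and 253 at 0.5, 2 and 8 h, and 8 h replicate 3, at 296, lay within the range at 22 h. UGT74B1 likewise averaged 80.2, 115 and 164, and both 8 h arrays, at 166 and 162, lay within the 22 h range.

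**Figure D4:**
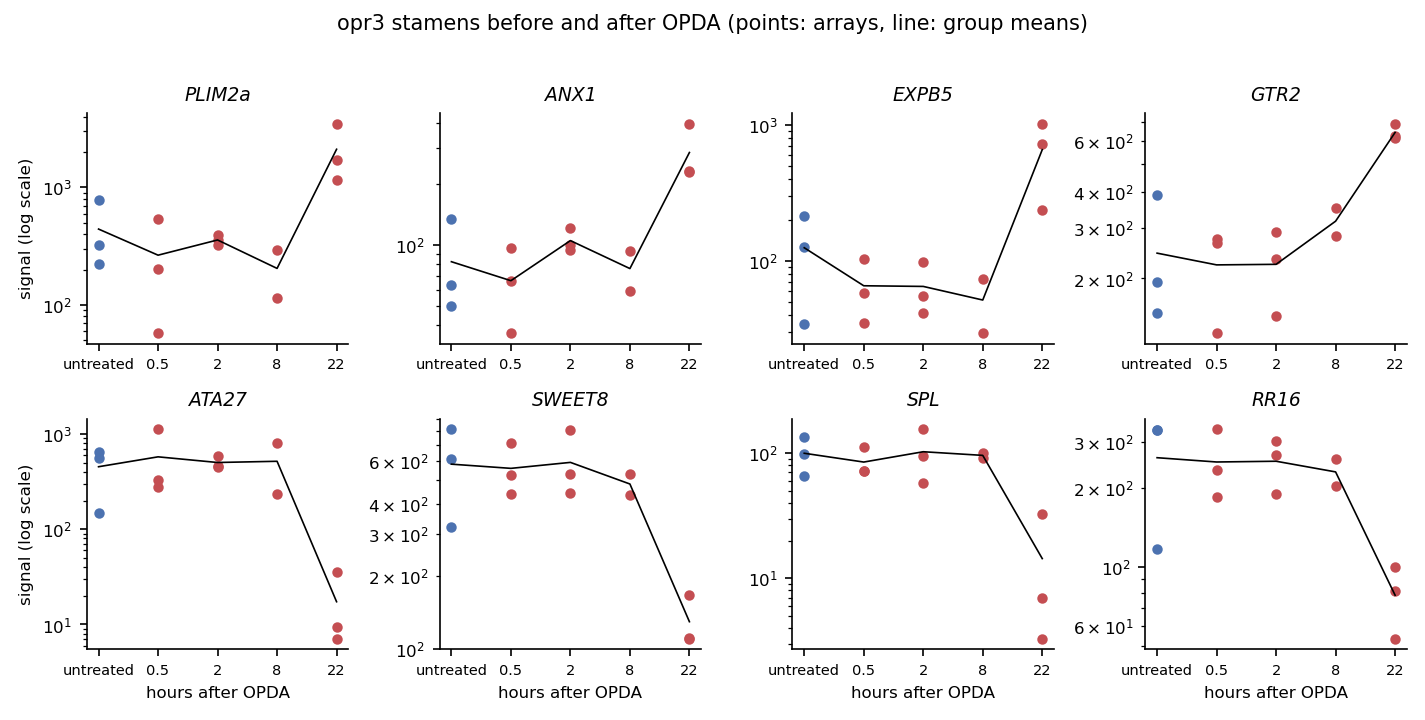
Signal (log axis) of 8 genes on each opr3 array, untreated and at 0.5, 2, 8 and 22 h after OPDA, with a line through the group means. For PLIM2a and ANX1 the 22 h arrays lie above, and for ATA27, SWEET8 and RR16 below, all arrays at 0.5 to 8 h.

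OPDA and methyl jasmonate were given at the same dose of 0.03% and could be compared at 22 h as 1 pair of compounds, without the untreated arrays. In OPDA 22 h over JA 22 h, 2624 probe sets were called, or 18.7%, with 1712 higher after OPDA (12.2%) and 912 lower (6.5%), or 1264 and 1082 with arrays centred on the median. Of the 799 rises over untreated stamens, 568 had no call between OPDA and JA, 130 were lower after OPDA than after JA and 101 higher. Of the 829 falls, 666 had no call between the compounds, 47 were lower after OPDA and 116 higher. These counts share the OPDA arrays.

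The summed signal of the pollen list had overlapping ranges after OPDA and after JA. The list summed to 12501.2, 18600.3 and 12034.1 after OPDA, 13331.6, 18594.9 and 11868 after JA and 8494.4, 8461.1 and 9907.6 in untreated stamens. PLIM2a averaged 3319.7 after JA, with a difference of -0.75 for OPDA over JA (95% interval -2 to 0.5, limma adjusted p = 0.45). SWEET8 had 141, 102 and 124 after JA, and its difference was 0.06 (95% interval -0.6 to 0.72). ATA27 had 0.8, 2.8 and 11.5 after JA, with a difference of 0.6 (95% interval -0.84 to 2.03). All 3 intervals include 0 and are wide, so that similar levels are not shown by them. Of the 19 tested pollen genes, 4 were called between the compounds, against 18.7% of all probe sets tested. Of these, AtVEX1, CHX19 and CHX20 were higher after OPDA by 1.59, 1.58 and 1.44, and NET2D was lower by 0.64. CHX19 averaged 377 after JA, and its lowest OPDA value was 965.

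A set of genes had high signal after JA and signal near the untreated level after OPDA. SWEET14 and SWEET13 are sucrose exporters that also move gibberellin and act in anther opening. SWEET14 had 46.4, 10.9 and 14.2 after OPDA, 3956.9, 4714.1 and 2835 after JA and 10.6, 34.9 and 17 in untreated stamens. Its difference for OPDA over JA was -6.67 (limma adjusted p = 1.3e-11), whereas its OPDA change over untreated stamens was 0.06 (95% interval -0.73 to 0.85). SWEET13 had 144, 111 and 114 after OPDA, 1700.6, 2555 and 1793.1 after JA and 71.1, 79.1 and 76.2 in untreated stamens. It did rise after OPDA, by 0.6 (limma adjusted p = 0.045), a call lost without any one of the 6 arrays, and its difference for OPDA over JA was -3.85. The glucosinolate and hormone transporter GTR1 had 2069.5, 2471.9 and 1522 after JA, and its difference for OPDA over JA was -4.89 (limma adjusted p = 8.2e-16). The auxin-conjugating enzyme GH3.3 had 7.2, 1.5 and 2.1 after OPDA, 867, 1248.9 and 576 after JA and 27.4, 2.4 and 2.8 in untreated stamens, a difference of -5.49. The groups of both compounds were fully apart in each of these genes. For genes named by the largest differences from JA this was a condition of the choice, so it is no separate support. The loci AT2G38240, AT1G76240 and AT3G43960 had differences of -6.32, -4.9 and -4.54. Where OPDA signals are this low, the size and order of such differences depend on the pseudocount of 16.

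**Figure D5:**
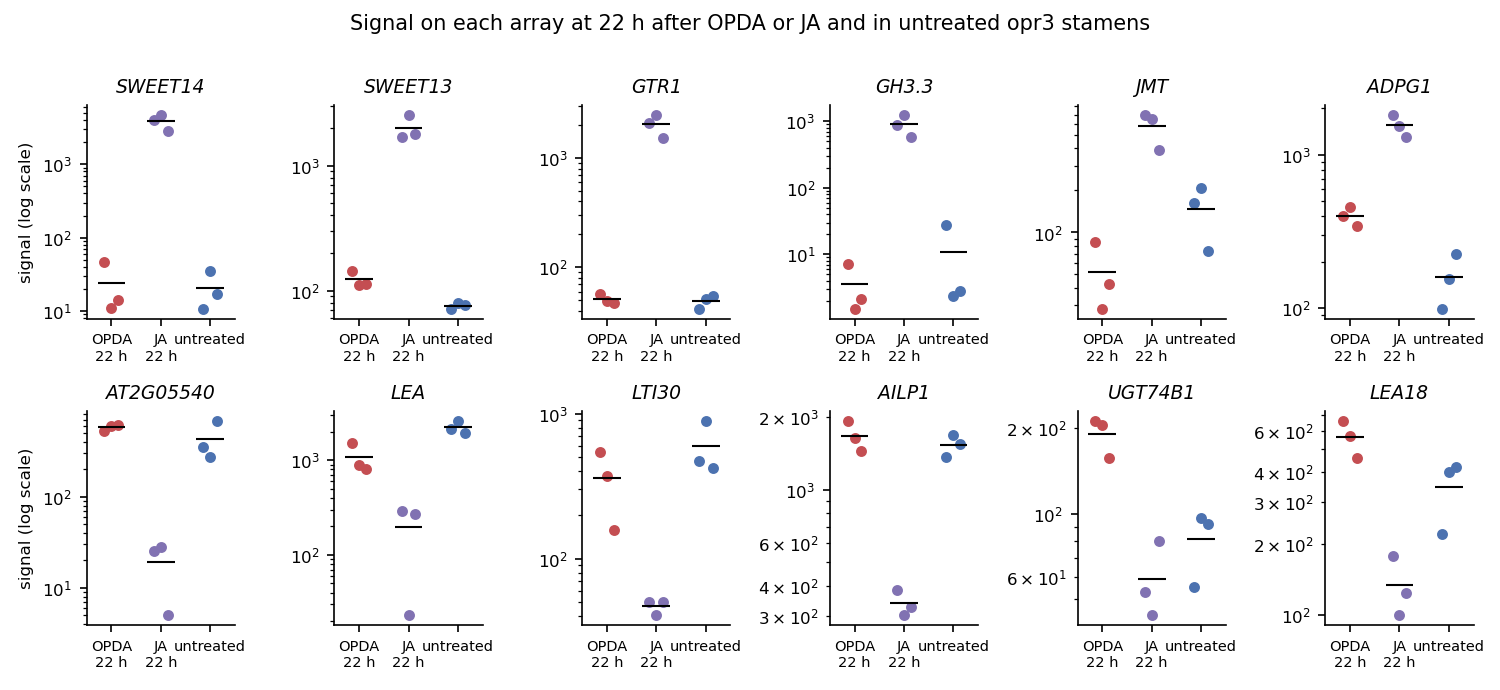
Signal (log axis) on each OPDA 22 h, JA 22 h and untreated opr3 array, in that order from left, for 12 genes that differed between the compounds. SWEET14, GTR1 and GH3.3 are high on the JA arrays alone, and AT2G05540, LEA, LTI30 and AILP1 are lower on every JA array than on any other array shown.

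JMT, RR16 and ADPG1 were also lower after OPDA than after JA. JMT had 696, 652 and 387 after JA, giving a difference of -3.17 for OPDA over JA (limma adjusted p = 7.7e-07). RR16 had 526, 324 and 338 after JA, a difference of -2.12 (limma adjusted p = 1.2e-05). ADPG1 had 1816.3, 1539.8 and 1299.1 after JA, a difference of -1.91 (limma adjusted p = 8.3e-05). JMT and RR16 therefore lay below the untreated mean after OPDA and above it after JA, while ADPG1 lay above it after both compounds. JA was not tested against untreated stamens, and the RR16 values after JA overlapped the untreated ones.

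In the other direction, genes of late embryogenesis abundant proteins and of cold and drought responses mostly had signals nearer the untreated ones after OPDA and were low after JA. Of 11 tested members of that list, 1 was called between OPDA and untreated stamens, against 11.6% of all probe sets tested. Between OPDA and JA 8 were called, against 18.7% of all probe sets tested. LEA had 1529, 903 and 818 after OPDA, 294, 23 and 271 after JA and 2165.5, 2600.7 and 1954 in untreated stamens. Its difference for OPDA over JA was 2.8 (SE 0.57, limma adjusted p = 0.0011), and its OPDA change over untreated stamens was -1.08 (limma adjusted p = 0.23). The 3 OPDA values of LEA lay below every untreated value, and that fall was called with the 6 arrays fitted alone and with a scan day block. The dehydrin LTI30 had 540, 372 and 158 after OPDA, 50.2, 40.6 and 49.8 after JA and 470, 888 and 424 in untreated stamens, a difference of 2.42 for OPDA over JA. LTI30 was called lower than untreated without treated replicate 1. COR47, a dehydrin, was the exception in sign, at -1.55 for OPDA over JA. The locus AT2G05540 had 532, 600 and 612 after OPDA, 25.2, 28.1 and 5 after JA and 349, 270 and 676 in untreated stamens, a difference of 4.15 (limma adjusted p = 1.5e-07). AILP1 had 1922.5, 1640 and 1447.8 after OPDA, 385, 301 and 327 after JA and 1367.5, 1676.2 and 1544.9 in untreated stamens. Its difference for OPDA over JA was 2.25, and its OPDA change over untreated stamens was 0.12 (limma adjusted p = 0.73). LEA18, called higher after OPDA over untreated stamens by 0.71 (limma adjusted p = 0.048), kept that call in 2 of the 6 fits that left out 1 array.

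Sugar transport held 18 tested genes, of which 13 differed between OPDA and JA at 22 h, against 18.7% of all probe sets tested. Some members passed the filter on signal only through arrays outside the OPDA 22 h and untreated groups. Among these were SWEET14 and SWEET9, which averaged 3835.3 and 218 after JA. With only the OPDA 22 h and untreated arrays fitted, 13 members were tested. Members let in by high JA signal favour a difference from JA, so the gap from 18.7% is no independent test. Between OPDA and untreated stamens 3 of the 18 were called, against 11.6% of all probe sets tested. Those 3 were SWEET8 and the vacuolar hexose transporter TMT3, which fell, and SWEET13. TMT3 had 780, 560 and 687 after OPDA, against 1335.5, 1143.6 and 1029.5 in untreated stamens (log2 change -0.78, limma adjusted p = 0.015), and its call was lost without treated replicate 2, untreated replicate 1 or untreated replicate 2. It averaged 351 after JA, so that the OPDA mean lay between the JA and the untreated means.

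The single untreated Ws array was near the OPDA 22 h arrays in pollen genes and near the untreated opr3 arrays in tapetum genes. PIPK11 was 228 and PLIM2a 2236.7 on that array, and its pollen list summed to 12964.7. ATA27 was 834 and SWEET8 404 there, and the tapetum list summed to 1289.8. With 1 array these differences have no replicate check.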

How the data were processed

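The authors hybridised biotin-labelled stamen RNA to 1-colour Affymetrix ATH1 arrays. Each deposited value is the linear intensity of a probe set, computed by the authors with MAS5 per the submitters' processing notes and brought by global scaling to a target of 125 per the labels. The software version, detection calls and background step are not given in the sources used here. Scan day and chip lot were taken from the deposited array records, in which both fields are blank for 2 arrays, OPDA 8 h replicate 1 and the Ws array. Those 2 arrays were left out of fits with these blocks.

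Signals were taken as log2(signal + 16). With limma 3.58.1 (R 4.3.3, eBayes with an intensity trend), 1 linear model of 25 arrays in 9 groups, leaving 16 residual degrees of freedom, was fitted to the 14028 probe sets that reached a signal of 50 on 2 or more arrays. A member may have passed this filter through any of the 25 arrays. JA 0.5 h replicates 1 and 2 were identical and were counted once. The third JA 2 h array, titled opr2, was kept in its group, OPDA 8 h has replicates 1 and 3 here, and the Ws array stayed outside the fit. Tests are two-sided, with Benjamini-Hochberg adjustment within each comparison and calls at an adjusted p under 0.05. Intervals are 95% intervals of the log2 change, with a median reach of 0.37 to either side. Precision is limited by the number of arrays. The procedure was tested on simulated data.

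Of the 22810 probe sets, 13513 were paired with 1 gene by the platform annotation, 503 with several and 8794 with none, and 13436 were matched to RefSeq, which gave the symbols. Genes were named by rule, and any gene given beyond the rule was chosen after its values were seen. The rule took, from called probe sets with 1 gene, the 15 that rose most and the 12 that fell most, given a higher mean of at least 100 and groups that do not overlap, the 6 largest differences from JA each way, up to 4 members of each gene list and a fixed set of jasmonate genes. The members and lists were chosen with earlier results of these data known. Same-numbered OPDA and JA arrays at 22 h deviated together (correlations 0.294, 0.507 and 0.523), as a check of pairing by replicate number. These same-numbered arrays also share a scan day and a chip lot, so pairing, scan day and chip lot cannot be told apart here. The main fit has no term for any of them. Alternatives were other pseudocounts, filters, scalings, blocks, array weights, the compared groups alone and leaving out each array. The counts of list members under these alternatives were added after seeing the data.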

Additional observations from a re-analysis of the deposited data

Results flagged for a closer look

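Among the named genes, 11 had estimated changes over the untreated mean of opposite sign after OPDA and after JA at 22 h. These were called both in OPDA 22 h over untreated stamens and in OPDA 22 h over JA 22 h (limma, Benjamini-Hochberg). JA was not tested against untreated stamens, so the signs after JA carry no test. The changes over untreated stamens share the untreated arrays, and the difference between the compounds does not use them.

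JMT differed by -3.17 on the log2 scale for OPDA over JA (limma adjusted p = 7.7e-07), from changes over untreated stamens of -1.26 after OPDA and 1.91 after JA. RR16 differed by -2.12 (-1.46 after OPDA, 0.67 after JA), and its JA values overlapped its untreated values. LEA18 differed by 1.97 (0.71 after OPDA, -1.27 after JA). UGT74B1 differed by 1.48 (1.1 after OPDA, -0.38 after JA), and its JA mean of 59.1 lay within its untreated range. The serine carboxypeptidase-like gene scpl25 differed by 1.38 (0.79 after OPDA, -0.59 after JA) and the TBL family member TBL38 by 1.18 (0.41 after OPDA, -0.77 after JA).

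The remaining differences were smaller. FMO differed by 0.99 (0.49 after OPDA, -0.49 after JA), the vacuolar protease BETA-VPE by 0.84 (0.75 after OPDA, -0.09 after JA) and the ubiquitin-conjugating enzyme UBC29 by 0.72 (0.61 after OPDA, -0.12 after JA). GR1, a glutathione reductase, differed by 0.67 (0.39 after OPDA, -0.28 after JA) and APG8H, of the autophagy ATG8 family, by 0.55 (0.42 after OPDA, -0.13 after JA). The changes after JA of BETA-VPE, UBC29 and APG8H lay within 0.2 of 0.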

How the results depend on the processing

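Counts below are called rises and falls. In OPDA 22 h over untreated, leaving out 1 array gave 106 to 989 rises and 107 to 1175 falls, the 6 arrays alone 304 and 191, a scan day block 1258 and 1512, and a 2-fold minimum 428 and 212. Deviations of same-numbered arrays of these groups had correlations of 0.24, -0.0397 and 0.233, and treated replicate 1 correlated best with untreated replicate 2. With 3 arrays in a group, such correlations cannot show whether the arrays were paired. The array records mark replicate 1 of both groups as set 1 and replicate 2 of both as set 2, without saying what a set is. The fit with the replicate block gave 1257 rises and 1534 falls, among them all 1628 calls of the main fit. In OPDA 22 h over JA 22 h, a 2-fold minimum gave 417 and 466, a mean signal of at least 100 gave 589 falls, the 6 arrays alone 966 rises, and leaving out 1 array 1116 to 1637 rises and 661 to 956 falls. The replicate block gave 2231 and 1211 there, which moved neither count by more than 1.5 times. Over earlier OPDA, a 2-fold minimum gave 483 and 232, and leaving out 1 array 532 to 1238 rises and 465 to 1680 falls. Median centring moved the share of rises among calls to 59.9% (907 and 607), against 49.1%, to 53.9% (1264 and 1082), against 65.2% over JA, and to 54.4% (1398 and 1171), against 42.5% over earlier OPDA. Scaling to the 75th percentile gave 55.1% (1320 and 1076) over JA. With the 6 arrays alone, 58 named genes kept their call and 70 lost it. No named gene changed direction past the threshold under any alternative run. Dim signals limit what can be read from the genes below 50, and the cause of these shifts was not tested.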
